A study of Mus musculus with 48 samples.

Results

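The histone genes of the Hist1, Hist2, Hist3 and Hist4 clusters were examined in hippocampal microglia of juvenile mice after whole brain irradiation. They were chosen by name: a row counted when its gene name began with Hist1h, Hist2h, Hist3h or Hist4h and it held at least 1 read in at least 6 of the 48 libraries. Of 70 such rows among the 48526 genes of the table, 47 met this rule, 6 of linker type H1, 9 of H2A, 14 of H2B, 7 of H3 and 11 of H4. The other 23 rows held 58 reads between them, 12 of them none. At the edge of the rule, 4 genes had reads in exactly 6 libraries and 2 rows just outside it, Hist1h2bh with 5 reads and Hist1h4f with 7 reads, had them in 5.

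The animals were C57BL/6 mice irradiated on postnatal day 21 with 8 Gy to the whole brain in 1 dose, or sham controls of the same strain and age. The hippocampus was taken 2 h, 6 h, 1 day or 1 week later, after perfusion, and microglia, the resident macrophages of the brain, were isolated by cell sorting for Cx3cr1. This fractalkine receptor is also carried by other myeloid cells. Each of the 8 groups had 6 animals and 1 library per animal, each time had its own sham animals, and the sex of the animals and the design of the Cx3cr1 sort are not given in the labels. Bulk libraries were made from total RNA with a QIAseq FX kit designed for single cells. They held 175382 to 3856777 reads on genes, with a median of 2212424. The 12 microglial markers checked summed to 28350 to 51430 reads per 1000000 (RPM), against at most 149 RPM for neural progenitor and 309 RPM for oligodendrocyte lineage markers and 0 to 4.16 RPM for 6 lymphocyte markers, of which Cd3e was at 0 in every library.

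Each nucleosome wraps DNA around a core of the histones H2A, H2B, H3 and H4, and linker histone H1 binds where the DNA enters and leaves it. Most genes of these clusters are replication dependent: they are transcribed mainly in S phase, and their mRNAs end in a conserved stem-loop in place of a poly(A) tail. The stem-loop is bound by SLBP, which takes part in 3′ end processing, in translation and in the decay of these mRNAs when DNA synthesis stops. Some of the genes can also give longer, polyadenylated transcripts in cells that have left the cell cycle. Microglia of the healthy brain divide at a low rate. In bulk libraries fewer dividing cells and less histone mRNA per cell cannot be told apart.

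The histone 3′ stem-loop was searched by its consensus in the transcripts of GENCODE M21 on GRCm38, and 36 of the 47 genes held it. It came in 7 forms of 16 bases, and the most common was found in 18 genes. The sequences below, shown because they belong to the genes called in a comparison and to the most read gene of each class, with Hist1h4i as a further H4 form, carry the 16 bases of the stem and loop in capitals with 5 flanking bases on each side.
Hist1h1c: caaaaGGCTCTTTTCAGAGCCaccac
Hist1h1d: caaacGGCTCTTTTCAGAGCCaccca
Hist3h2a: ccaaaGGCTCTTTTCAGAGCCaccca
Hist1h2ad: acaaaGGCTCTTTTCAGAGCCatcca
Hist1h2be: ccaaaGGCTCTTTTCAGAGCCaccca
Hist1h3a: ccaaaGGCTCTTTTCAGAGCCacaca
Hist4h4: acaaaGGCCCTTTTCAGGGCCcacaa
Hist1h4i: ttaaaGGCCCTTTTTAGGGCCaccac
The capitals lie at chr13:23739512-23739527 for Hist1h1c, chr13:23555787-23555802 for Hist1h1d, chr11:58955172-58955187 for Hist3h2a and chr13:23574895-23574910 for Hist1h2ad, all on the plus strand. On the minus strand they lie at chr13:23585531-23585546 for Hist1h2be, chr13:23761890-23761905 for Hist1h3a, chr6:136803998-136804013 for Hist4h4 and chr13:22040966-22040981 for Hist1h4i. The linker, H2A, H2B and H3 genes shown here share one stem, and Hist4h4 and Hist1h4i carry other forms, both of which were found in H4 genes alone. No match was found in the annotated transcripts of the linker genes Hist1h1a and Hist1h1b, which says only that the searched letters are not in those windows.

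Promoters of 300 bases, 250 before and 50 after the start, were given by RefSeq on GRCm38.p6 for 41 of the 47 genes. Shown are those of 3 genes called below, the linker genes Hist1h1b and Hist1h1d and the H2A gene Hist3h2a, with every match on either strand to the motifs named after them in capitals.
Hist1h1b: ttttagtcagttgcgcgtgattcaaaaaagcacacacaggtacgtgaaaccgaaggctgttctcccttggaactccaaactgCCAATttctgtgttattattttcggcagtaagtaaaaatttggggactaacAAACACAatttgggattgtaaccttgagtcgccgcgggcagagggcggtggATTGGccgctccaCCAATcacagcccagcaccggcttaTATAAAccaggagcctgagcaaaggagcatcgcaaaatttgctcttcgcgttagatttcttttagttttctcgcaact
Hist1h1d: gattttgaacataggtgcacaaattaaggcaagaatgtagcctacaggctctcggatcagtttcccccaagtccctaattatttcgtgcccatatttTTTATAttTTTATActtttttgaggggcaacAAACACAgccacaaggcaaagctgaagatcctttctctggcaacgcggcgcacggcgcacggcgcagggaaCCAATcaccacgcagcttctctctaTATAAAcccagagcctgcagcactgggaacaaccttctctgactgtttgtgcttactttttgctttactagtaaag
Hist3h2a: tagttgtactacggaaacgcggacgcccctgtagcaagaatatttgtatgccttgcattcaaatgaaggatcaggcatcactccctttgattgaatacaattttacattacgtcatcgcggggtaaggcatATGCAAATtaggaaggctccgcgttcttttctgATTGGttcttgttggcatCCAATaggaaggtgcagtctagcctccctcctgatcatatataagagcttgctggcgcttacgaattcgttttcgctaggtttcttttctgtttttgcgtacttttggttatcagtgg
These are chr13:21780576-21780875 on the minus strand, chr13:23554782-23555081 on the plus strand and chr11:58954435-58954734 on the plus strand. TATAAA, the core of the TATA box, was present in 4 of 6 linker promoters, 6 of 9 for H2A, 7 of 11 for H2B, 2 of 5 for H3 and 6 of 10 for H4, against 13.6% of all 32851 promoters of the same length. CCAAT was present in 6 of 6 linker, 9 of 9 H2A, 11 of 11 H2B and 5 of 5 H3 promoters and in 3 of 10 for H4, against 37.4% of all. The octamer ATTTGCAT was present in 5 of 9 H2A and 5 of 11 H2B promoters and in no other class, against 1.74% of all. AAACACA, known as the AC box of linker genes, was present in 5 of 6 linker promoters, 1 of 9 for H2A, 2 of 11 for H2B and no H3 or H4 promoter, against 7.18% of all. These are matches of letters, and binding to them was not measured.

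Reads were divided unevenly among the 47 genes. Together they held 64931 reads over the 48 libraries, 0.0259% to 0.103% of a library's reads, and 23 of the genes held under 100 reads each. Linker genes took 70.7% of these reads, H2B 19.1%, H4 6.11%, H2A 2.94% and H3 1.17%. Hist1h1c, which encodes linker histone H1.2, alone held 37441 reads or 57.7%. Per length, on the scale of reads per kilobase of gene span per 1000000 reads (RPKM), the highest mean levels over 48 libraries were 216 for Hist1h1c, 51.8 for Hist1h1e and 41.5 for Hist1h1d, all linker genes, then 12.8 for Hist1h4d and 8.99 for Hist1h4c. The first H2A gene in this order was Hist3h2a at 6.88, and the first H2B gene was Hist1h2bg at 5.76. No gene on another chromosome than 13 stood above Hist3h2a of chromosome 11.

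Most of the reads lay in genes whose annotated end lies far beyond the stem-loop, chiefly in Hist1h1c. For 23 of the 36 genes with a stem-loop the gene end of the deposited table lies within 100 bases past it, for 7 within 101 to 500 bases and for 6 beyond 500 bases. Those 6, Hist1h1c, Hist1h2be, Hist3h2a, Hist1h2bp, Hist2h4 and Hist4h4, held 75.3% of the reads of all 47, and Hist1h1c alone held 57.7%. Hist2h4 and Hist1h2bp, also among the 6, held 597 and 22 reads. For Hist1h1c the end lies 840 bases past the stem-loop, for Hist3h2a 1643, for Hist1h2be 1789 and for Hist4h4 2445. Hist1h1d and Hist1h1e are exceptions, with 3563 and 4496 reads and ends 28 and 27 bases past it. For both, GENCODE M21 lists a longer transcript, reaching 4884 and 1153 bases past the stem-loop. Longer transcripts are also listed for genes of fewer reads, such as Hist1h2ac (2010 bases, 126 reads) and Hist1h3d (752 bases, 130 reads). Reads cannot be placed within a gene here, so reads of stem-loop ended and of longer transcripts cannot be told apart.

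**Figure D1:**
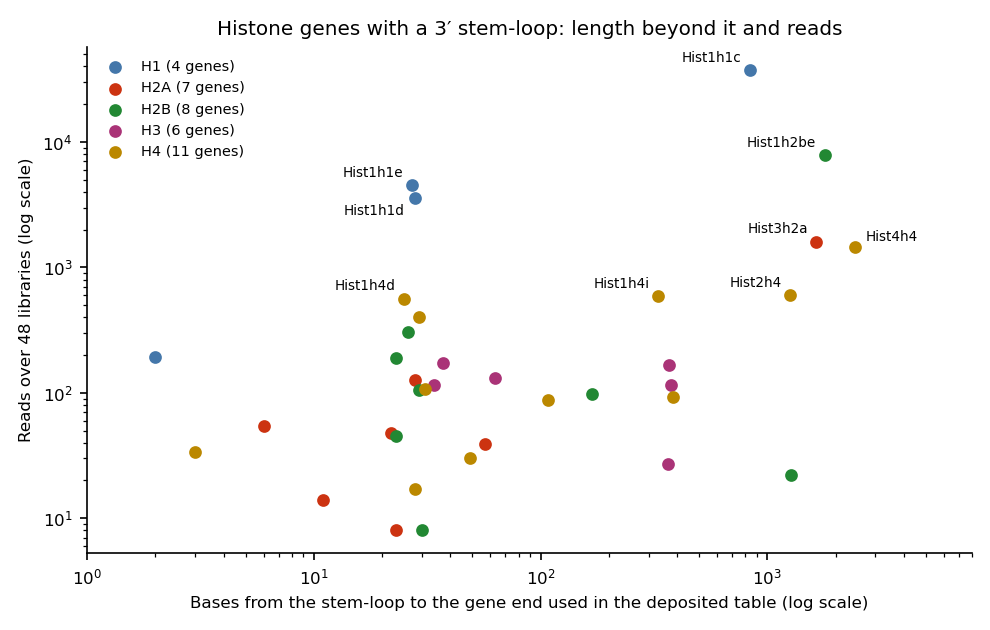
Each point is 1 of the 36 histone genes with a stem-loop, coloured by class, with the bases from the stem-loop to the gene end of the deposited table (horizontal, log scale) and its reads over 48 libraries (vertical, log scale). Hist1h1c, Hist1h2be, Hist3h2a and Hist4h4 stand at the upper right with ends more than 500 bases past the stem-loop, and Hist1h1e and Hist1h1d stand out among genes that end close to it.

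Histone genes resemble each other, and the handling of reads with several matches is not given in the sources used here. Of the 46 genes with a transcript, 20 share over 50% of their stretches of 50 bases with transcripts of other genes, and the median is 45.8%. Shares are low for Hist1h1c (8.54%) and at 0 for Hist1h1a and Hist1h1b, 22.2% for Hist1h1e and 23.4% for Hist1h1d, and 84.1% for Hist1h2ad. Hist3h2a shares 31.5%, or 660 of its 2097 stretches, all of them with Trim17, a gene that begins at the same base on the same strand. The other stretches of Hist3h2a were found in no transcript of another gene. Trim17, a ubiquitin ligase gene of the tripartite motif family, held 86 reads over the 48 libraries against 1600 for Hist3h2a. Values of Hist1h1d, Hist1h1e, Hist1h2ad and of most H2A, H2B, H3 and H4 genes are therefore uncertain as to which gene the reads came from.

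A structure among the libraries bears on the 6 h comparison. On the first principal component of 10132 genes, with 15.4% of the variance, the 2 h libraries of both arms and sham 6 h libraries 1 to 4 had values from -43.7 to -10.1. Sham libraries 5 and 6 of that time had 11.3 and 15.99, beside the irradiated 6 h libraries at 12.3 to 21.1. Irradiation and this axis cannot be told apart among the other 10 libraries of the 6 h comparison, so the histone genes called at 6 h are also given against sham libraries 5 and 6 alone. With those 2 controls 158 of the 10132 genes were called higher and 54 lower at 6 h, against 1309 and 811 with all sham libraries. A call lost in that fit therefore does not show that a difference is absent. Other measures moved with the groups as well. Microglial markers summed to 42420 to 50460 RPM in sham and 36470 to 40750 RPM in irradiated animals at 6 h, without overlap, and to 37530 to 48000 against 28350 to 39570 RPM at 1 day. Monocyte and neutrophil markers had medians of 19.04 and 47.8 RPM at 1 day, and astrocyte markers 22.7 and 46.9 RPM at 6 h, both with overlap. Mitochondrial genes took 3.09% to 7.12% of the reads of sham and 2.35% to 4.34% of irradiated 6 h libraries, with 3.27% and 3.09% in sham libraries 5 and 6. At 1 week their share was 1.42% to 2.36% in sham and 2.56% to 4.38% in irradiated animals, without overlap. In each library most of this share was the ribosomal RNA mt-Rnr2, for example 6.81% of the reads in sham 6 h library 4, where all mitochondrial genes took 7.12%. The part of these measures in the histone results was not tested. The libraries with fewer than 1000000 reads were sham 1 day library 6 with 175382, irradiated 2 h library 2 with 395761 and sham 6 h library 4 with 731819.

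Few histone genes differed between irradiated and sham animals. The test was limma on log2(RPKM + 1), with Benjamini-Hochberg adjustment over the 10132 genes that reached an RPKM of 1 in at least 6 libraries, called at an adjusted p under 0.05. Of the 47 histone genes 38 were tested, 6 of H1, 5 of H2A, 10 of H2B, 6 of H3 and 11 of H4, and the 9 not tested held 114 reads. At 2 h 1 of 38 was lower and 0 were higher, where 8.62% of all genes were called, 4.02% lower and 4.6% higher. At 6 h 3 were lower and 0 higher, where 20.9% of all genes were called, 8% lower and 12.9% higher. At 1 day 0 were called, where 4.29% of all genes were, 1.39% lower and 2.9% higher. At 1 week 1 was higher and 0 lower, where 3.54% of all genes were called, 2.03% higher and 1.51% lower. The genes called were 2.63%, 7.89%, 0% and 2.63% of the 38 at the 4 times, each share below that of all genes called in either direction. In the direction of the calls, the shares of all genes were 4.02% at 2 h, 8% at 6 h and 2.03% at 1 week. Counts of 0 to 3 genes near these shares show nothing particular to the histone genes. Unadjusted p values were under 0.05 for 3, 7, 4 and 2 of the 38 at the 4 times, and for 20%, 32.8%, 15.7% and 18.2% of all genes.

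The directions of the differences, called or not, varied with time. The median log2 difference over the 38 genes was 0.07 at 2 h, -0.31 at 6 h, -0.13 at 1 day and 0.23 at 1 week, where the median over all genes tested was -0.01, 0.08, 0.00 and 0.05. Differences were positive for 21 of 38 at 2 h, 9 at 6 h, 16 at 1 day and 26 at 1 week. By type, the core histone genes had 25 of 32 negative differences at 6 h, among them 6 of 6 for H3 and 9 of 10 for H2B. These 6 h counts are against all sham libraries of that time. They are not given against the sham libraries that lay beside the irradiated ones on the principal component described above. The 6 linker genes all had positive differences at 1 week, with a median of 0.64. The H4 genes had positive differences for 10 of 11 at 2 h and for 4 of 11 at 1 week. All these counts of sign are given without the share of all genes that had the same sign. Many of the histone genes share sequence and rest on few reads, so they do not count as separate replicates. Whether the counts differ from those of other genes was not tested. None of the H2B, H3 or H4 genes was called at any of the 4 times with limma, with 4, 2 and 1 unadjusted p values under 0.05 over the 4 comparisons.

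**Figure D2:**
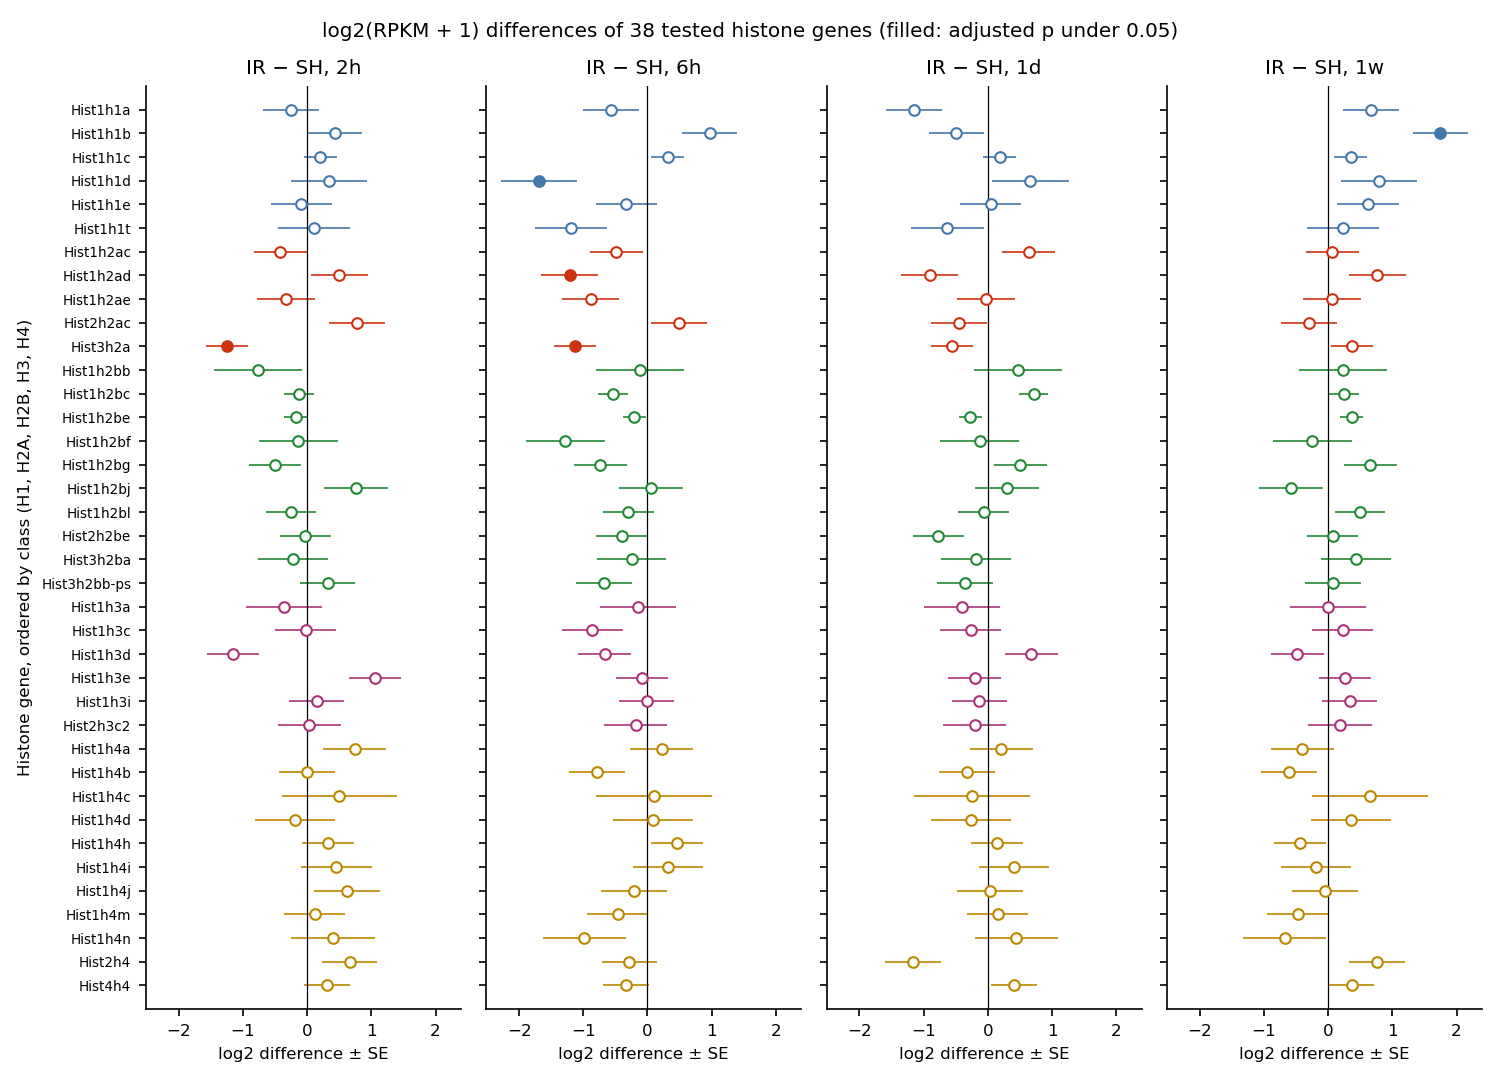
Each row is 1 of the 38 tested histone genes, ordered and coloured by class, with its irradiated minus sham log2(RPKM + 1) difference (horizontal, bars 1 SE) at the 4 times. Filled points have an adjusted p under 0.05: Hist3h2a at 2 h, Hist3h2a, Hist1h1d and Hist1h2ad at 6 h, and Hist1h1b at 1 week.

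Among the linker genes, Hist1h1d was lower 6 h after irradiation. It encodes H1.3, a replication-dependent linker subtype. Sham animals at 6 h had 36.5, 75.1 and 94.8 RPKM as lowest, median and highest, and irradiated animals 10.2, 20.1 and 48.4. The groups overlapped, through irradiated library 3 at 48.4 and sham library 6 at 36.5. The log2 difference was -1.69 ± 0.60 (SE) with an adjusted limma p of 0.0375. Against sham libraries 5 and 6 alone, at 88.1 and 36.5 RPKM, it was -1.47 ± 0.88 with an adjusted p of 0.655. The call also depended on single libraries: without 1 of 9 of the 12 libraries in turn, namely sham 1, 2, 3 or 5 or irradiated 1, 2, 4, 5 or 6, the adjusted p was 0.051 to 0.0854, at log2 differences from -1.72 to -1.51.

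At the other times Hist1h1d was not called. Sham and irradiated medians were 43.2 and 64.2 RPKM at 2 h, 17.9 and 18.4 at 1 day and 35.5 and 62.3 at 1 week, with overlapping groups. The log2 differences there were 0.34 ± 0.60, 0.66 ± 0.60 and 0.79 ± 0.60, and the change of the difference from 6 h to 1 day was 2.36 ± 0.84 with an adjusted limma p of 0.0932. Sham 1 day library 6, which holds 175382 reads in all, had 0 reads of Hist1h1d. Without that library the 1 day difference was -0.07, and the change from 6 h to 1 day given here includes it. The sham medians alone thus ran from 17.9 to 75.1 RPKM over the 4 times.

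Hist1h1b was higher in irradiated animals at 1 week. It encodes H1.5, a linker subtype made mainly in dividing cells. Sham animals had 0, 0 and 0.916 RPKM as lowest, median and highest, from 3 reads in 2 of 6 libraries, and irradiated animals had 0.410, 3.63 and 4.99, from 43 reads in all 6. The groups overlapped only in the lowest irradiated library. The log2 difference was 1.75 ± 0.43 with an adjusted limma p of 0.0142, and without any 1 of the 12 libraries it stayed between 1.63 and 2.05 with adjusted p values of 0.00291 to 0.0424. At 1 day the median was 0.750 in sham and 0 in irradiated animals, with 12 and 3 reads, and the difference was -0.49 ± 0.43. From 1 day to 1 week the difference changed by 2.24 ± 0.60 with an adjusted p of 0.0215, in a comparison that called 5.43% of all genes. At 6 h the medians were 0.233 and 1.96 RPKM, a difference of 0.97 ± 0.43 with an adjusted p of 0.1, and at 2 h it was 0.44 ± 0.43.

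Hist1h1a, which encodes H1.1 and is named here after its values were seen, also had few reads. Its 6 irradiated 1 day libraries held 0 reads, against 13 reads in 5 of 6 sham libraries, and the difference of -1.15 ± 0.44 had an adjusted limma p of 0.145. At 1 week its medians were 0.993 RPKM in sham and 2.81 in irradiated animals, from 18 and 28 reads, with a difference of 0.66 ± 0.44 and an adjusted p of 0.44. With a pseudocount of 0.1 in place of 1, or with limma voom on the recovered reads, the 1 day difference of Hist1h1a passed the threshold, with adjusted p values of 0.0387 and 0.01.

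Hist1h1c, the most abundant histone gene of these cells, was not called at any time. Its sham and irradiated medians were 89.3 and 116 RPKM at 2 h, 213 and 277 at 6 h, 186 and 200.1 at 1 day and 229 and 302 at 1 week. The 4 log2 differences ran from 0.18 ± 0.26 to 0.35 ± 0.26 with adjusted limma p values of 0.417 to 0.807, and at each time the groups overlapped. At 6 h its sham libraries were of unequal level: libraries 1 to 4 had 140 to 248 RPKM and libraries 5 and 6 had 413 and 410, above all 6 irradiated libraries at 235 to 377. Against sham libraries 1 to 4 alone, an alternative chosen after seeing the data, Hist1h1c was higher by 0.73 with an adjusted p of 0.0286, and against libraries 5 and 6 alone the difference was -0.50 with an adjusted p of 0.711. Hist1h1e, which encodes H1.4, showed the same layout in sham 6 h animals, with 25.9 to 36.5 RPKM in libraries 1 to 4, 88.6 in library 5 and 145 in library 6. Its medians were 32.1 and 36.0 RPKM at 2 h, 34.6 and 40.2 at 6 h, 54.3 and 52.2 at 1 day and 68.2 and 78.5 at 1 week, none called. Hist1h1t, the linker gene known from the testis, was likewise not called; it had 194 reads, and at 6 h its medians were 3.42 RPKM in sham and 0.701 in irradiated animals.

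Among the H2A genes, Hist3h2a was lower in irradiated animals at 2 h and 6 h. It is the single H2A gene of the Hist3 cluster on chromosome 11. At 2 h sham animals had 8.69, 10.6 and 20.4 RPKM as lowest, median and highest, and irradiated animals had 2.96, 4.35 and 7.07. No irradiated library reached the lowest sham library, a separation in this direction found for 2.03% of all genes tested. The log2 difference was -1.25 ± 0.33 with an adjusted limma p of 0.00921, and it lay between -1.37 and -1.11 without any 1 library, each time past the threshold. With a pseudocount of 0.1 in place of 1 it was -1.41 with an adjusted p of 0.112, not called.

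At 6 h the same gene had 6.14, 12.4 and 18.8 RPKM in sham and 3.81, 4.78 and 6.14 in irradiated animals. The groups touched without overlap, since the highest irradiated library was at 6.136 and the lowest sham library, library 5, at 6.143; 2.88% of all genes were separated in this direction. The log2 difference was -1.12 ± 0.33 with an adjusted limma p of 0.0113, and it stayed past the threshold without any 1 library. With a pseudocount of 0.1 it was -1.25 with an adjusted p of 0.107, not called. Against sham libraries 5 and 6 alone, at 6.14 and 11.6 RPKM, it was -0.68 with an adjusted p of 0.744, where 2 of the 6 sham libraries carry the comparison.

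At 1 day Hist3h2a had 0, 6.23 and 8.41 RPKM in sham and 1.99, 2.45 and 4.47 in irradiated animals. The sham library at 0 is library 6, which holds 175382 reads in all, and the difference of -0.55 ± 0.33 was not called with an adjusted limma p of 0.441. Without that library the difference was -1.04 with an adjusted p of 0.00512. At 1 week the order was the other way, with medians of 5.03 in sham and 6.70 in irradiated animals, and the difference of 0.37 ± 0.33 was not called. Reads counted for the overlapping gene Trim17 numbered 7 in sham and 6 in irradiated animals at 2 h, and 7 and 5 at 6 h. How reads of the stretches shared with Hist3h2a were counted is not given, so these numbers do not measure the part of Trim17.

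Hist1h2ad, an H2A gene of the large Hist1 cluster on chromosome 13, was lower at 6 h on few reads. Sham animals had 1.01, 2.48 and 4.49 RPKM from 17 reads, and irradiated animals had 0, 0.442 and 1.58 from 3 reads. The difference was -1.21 ± 0.44 with an adjusted limma p of 0.0458. It was not called without 1 of 8 of the 12 libraries in turn (sham 1 to 5, irradiated 1, 2 or 6), with adjusted p values of 0.059 to 0.112, nor against sham libraries 5 and 6 alone, with -0.98 and an adjusted p of 0.722. At 2 h it had 2 reads in sham and 6 in irradiated animals, and at 1 week 2 and 9, with differences of 0.50 ± 0.44 and 0.76 ± 0.44. Hist1h2ac of the same cluster was not called, with medians of 3.69 and 2.04 RPKM at 6 h and 2.79 and 4.05 at 1 day.

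**Figure D3:**
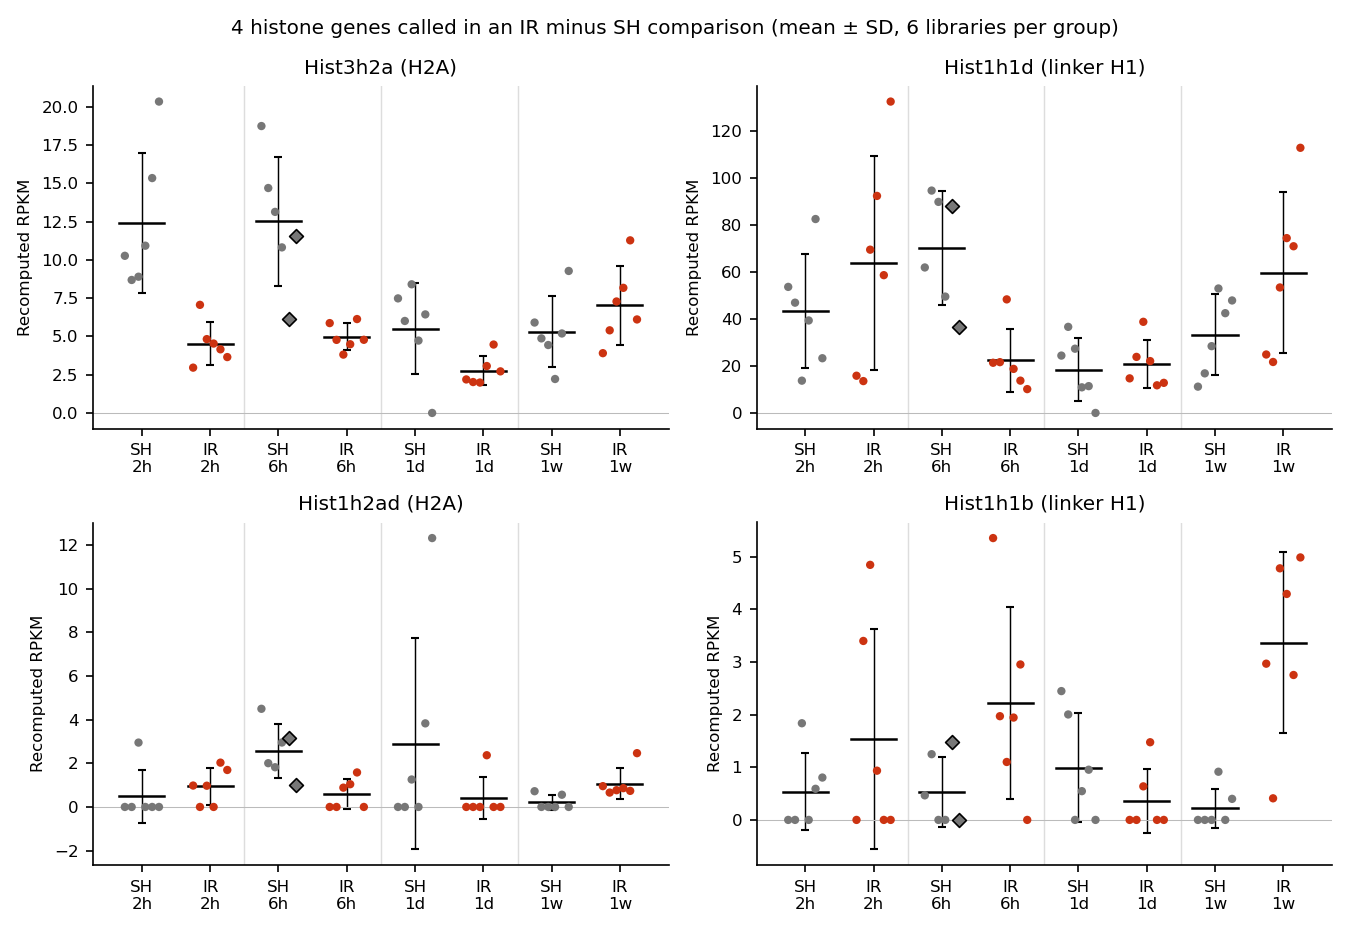
RPKM of the 4 histone genes called in a comparison, by group and time: points are single libraries (grey sham, SH, and red irradiated, IR), lines the mean and bars the SD of 6 libraries, and diamonds mark sham 6 h libraries 5 and 6. Hist3h2a is separated at 2 h and just separated at 6 h, Hist1h1d and Hist1h2ad overlap at 6 h, and Hist1h1b is near 0 in sham and up to 4.99 in irradiated animals at 1 week.

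Among the H2B genes no difference was called at any time. Hist1h2bg had medians of 5.62 and 4.76 RPKM at 2 h, 7.86 and 4.83 at 6 h, 5.16 and 4.90 at 1 day and 4.59 and 7.0 at 1 week. Its 6 h difference of -0.74 ± 0.41 had an adjusted limma p of 0.213, and fitted on the 12 libraries of that time alone the adjusted p was 0.0381. Hist2h2be, an H2B gene of the Hist2 cluster on chromosome 3, had medians from 2.41 to 4.80 RPKM over the 8 groups. Hist1h2bb had medians of 0.434 to 4.61 RPKM, with 1 library each at 33.5 (irradiated 6 h, library 6) and 25.8 (irradiated 1 day, library 5).

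Hist1h2bc, an H2B gene named after its values were seen, was the 1 core histone gene called in a change between adjacent times. At 6 h it had 2.64, 3.47 and 5.86 RPKM in sham and 1.88, 2.31 and 3.36 in irradiated animals, and at 1 day 0.688, 1.44 and 2.93 in sham and 2.04, 2.58 and 7.15 in irradiated animals. The groups overlapped at both times, and the differences of -0.53 ± 0.23 and 0.72 ± 0.23 were not called, with adjusted limma p values of 0.0915 and 0.0642. The change between them was 1.25 ± 0.32 with an adjusted p of 0.0194, in a comparison that called 4.38% of all genes. With sham 6 h libraries 5 and 6 alone as the 6 h controls the change was 1.07 with an adjusted p of 0.403. With limma voom the change had an adjusted p of 0.0149 and the 6 h difference, at -0.80, one of 0.0484. Its span of 8290 bases includes introns. Hist1h2be, the H2B gene with the most reads, spans 37383 bases and was not called, with group medians of 1.38 to 2.45 RPKM.

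The H3 genes were scarce, with 757 reads over the 48 libraries in 7 genes, and none was called. Hist1h3d had 1.07, 2.34 and 6.15 RPKM in sham and 0, 0.752 and 1.24 in irradiated animals at 2 h, a difference of -1.15 ± 0.41 with an adjusted limma p of 0.0736. With the trend of the differences over GC content and gene length removed, its adjusted p was 0.0407. Hist1h3e, named after its values were seen, lay the other way at 2 h, with medians of 0.820 and 1.92 RPKM and a difference of 1.06 ± 0.41, adjusted p 0.107. Hist1h3a and Hist1h3c had differences of -0.35 ± 0.59 and -0.02 ± 0.47 at 2 h and of -0.14 ± 0.59 and -0.86 ± 0.47 at 6 h, none of them called.

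The H4 genes, which encode nearly the same protein, varied widely between animals of a group. Hist1h4c had medians of 2.48 to 9.21 RPKM over the 8 groups, while single libraries reached 20.7 in sham 2 h, 39.9 in sham 6 h, 41.0 in irradiated 6 h, 37.6 in irradiated 1 day and 36.8 in irradiated 1 week animals. Hist1h4d had medians from 6.81 to 16.4 RPKM and Hist1h4i from 4.71 to 9.37, and neither was called at any time. Hist2h4, named after its values were seen, had 1.43, 2.995 and 8.26 RPKM in sham and 0.266, 0.902 and 1.95 in irradiated animals at 1 day, from 82 and 20 reads. Its difference of -1.17 ± 0.43 had an adjusted limma p of 0.133.

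Summed by class, H2A was the one class of 5 whose groups did not overlap, at 2 h and 6 h. Its members gave 20.5 to 45.5 RPM in sham and 9.80 to 17.7 RPM in irradiated animals at 2 h, and 18.3 to 44.4 against 11.3 to 15.4 RPM at 6 h. Hist3h2a made up most of these sums: without it the H2A genes gave 0.689 to 4.08 against 1.39 to 5.45 RPM at 2 h and 1.86 to 5.47 against 1.08 to 3.68 RPM at 6 h, with overlap. Linker reads gave medians of 206 RPM in sham and 281 in irradiated animals at 2 h, 419 and 487 at 6 h, 343 and 367 at 1 day and 471 and 591 at 1 week, with overlap at each time. In sham 6 h libraries 5 and 6 the linker sum was 783 RPM in both, against 292 to 486 in libraries 1 to 4. H2B sums had medians of 120 and 83.4 RPM at 2 h, 139 and 103.5 at 6 h, 112 and 105 at 1 day and 104 and 140 at 1 week. H3 medians lay between 4.54 and 10.2 RPM and H4 medians between 25.8 and 42.9 RPM in the 8 groups.

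**Figure D4:**
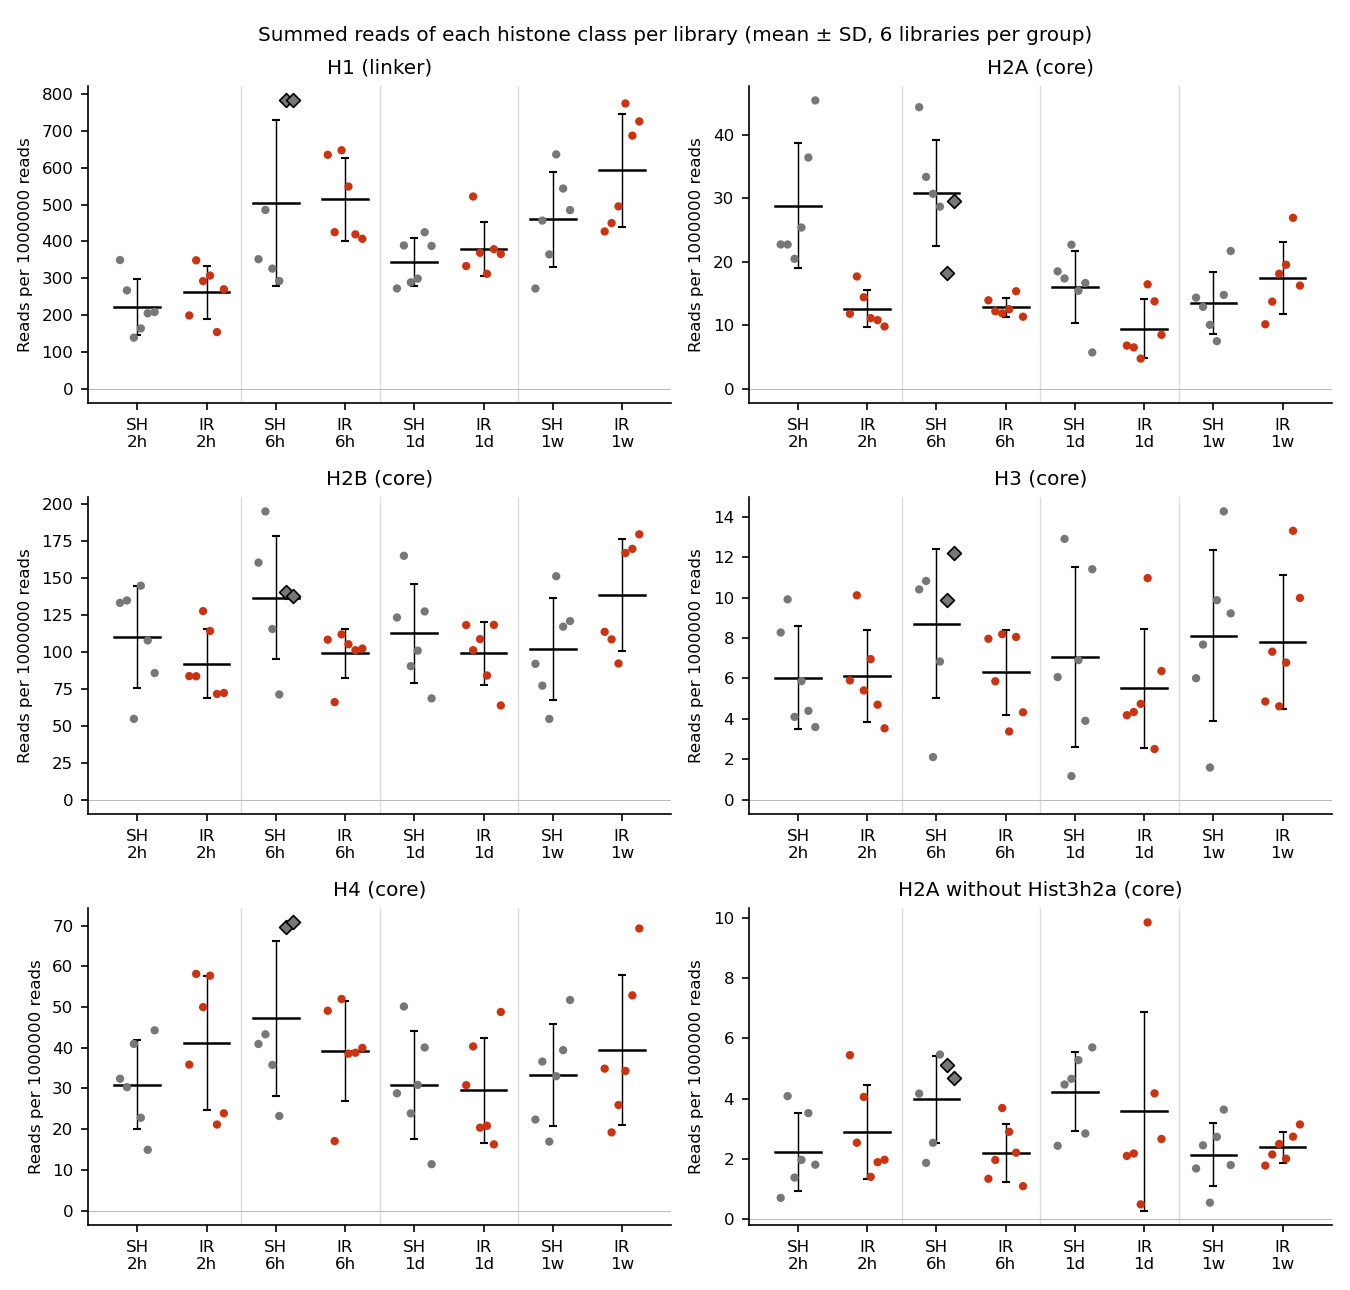
Summed reads of each histone class per 1000000 reads, by group and time: points are single libraries (grey sham, SH, and red irradiated, IR), lines the mean and bars the SD of 6 libraries, and diamonds mark sham 6 h libraries 5 and 6. The H2A sum is separated at 2 h and 6 h, and the last panel shows H2A without Hist3h2a, where the groups overlap; in the H1 panel both diamonds lie at 783.

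Between times, the 6 h and 2 h differences were not told apart for any of the 38 genes by limma, in a comparison that called 9.28% of all genes. The unadjusted p was under 0.05 for 2 of them, Hist1h1d and Hist1h2ad, and for 23.9% of all genes. From 6 h to 1 day 1 gene, Hist1h2bc, was called, and from 1 day to 1 week 1 gene, Hist1h1b. An F test over the 3 changes called 5 genes, Hist1h2bc, Hist1h1b, Hist1h2ad, Hist3h2a and Hist2h4, where it called 19.3% of all genes. Between sham animals at 1 day and 1 week 0 histone genes were called by limma, and 0.00987% of all genes were called; the unadjusted p was under 0.05 for 2 of them and for 6.58% of all genes. These comparisons share groups, so their values are not independent of each other.

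Genes that work with the histone genes were read from lists, whose shares called stand against 8.62%, 20.9%, 4.29% and 3.54% of all genes at the 4 times. Here and in the paragraphs below, 6 h differences of listed genes are against all sham libraries of that time. They are not given against sham libraries 5 and 6 alone, so they carry the limit stated above for the 6 h comparison. Of the replication-independent histone genes, whose mRNAs are polyadenylated and which are made outside S phase, 9 of 11 were tested, with 1 higher and 1 lower at 2 h, 1 higher at 6 h, 1 higher at 1 day and none at 1 week, or 22.2%, 11.1%, 11.1% and 0%. The gene that was higher each time was H2afj, an H2A variant. At 2 h it had 1.13, 3.11 and 10.5 RPKM in sham and 8.35, 20.6 and 27.3 in irradiated animals, at 6 h 1.49, 2.19 and 2.6 against 12.7, 16.3 and 23.0, and at 1 day 0, 2.96 and 5.40 against 4.92, 8.35 and 14.8. The groups were separated at 6 h, in a direction found for 4.96% of all genes tested and for 2 of the 9 genes of this list. They overlapped at 2 h and 1 day. Sham 6 h libraries 5 and 6, at 2.6 and 2.30 RPKM, lay with the other sham libraries. The log2 differences were 2.06 ± 0.35, 2.48 ± 0.35 and 1.41 ± 0.35 with adjusted limma p values of 2.88e-05, 7.71e-07 and 0.00746, and at 1 week 0.38 ± 0.35 was not called. H3f3a, which encodes the H3.3 variant, was lower at 2 h, with a log2 difference of -0.85 ± 0.22 and an adjusted p of 0.00698. H2afz, which encodes H2A.Z, and Cenpa, the centromeric H3 variant, were not called, with differences of 0.67 ± 0.26 and -0.41 ± 0.17 at 6 h.

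Of 22 genes of histone mRNA processing and histone gene transcription 16 were tested, with 0 called at 2 h, 1 higher and 2 lower at 6 h, 1 higher at 1 day and 0 at 1 week, or 0%, 18.8%, 6.25% and 0%. Lsm10, a protein of the U7 particle that cuts histone pre-mRNA, was higher at 6 h by 1.40 ± 0.30 with an adjusted limma p of 0.000596. Its sham libraries 5 and 6 had 7.84 and 10.03 RPKM where the sham median was 3.24 and irradiated libraries had 8.45 to 14.2. Ncbp1, a subunit of the cap-binding complex, and Eri1, an exonuclease that trims the histone stem-loop, were lower at 6 h, with differences of -0.53 ± 0.18 and -0.35 ± 0.12 and adjusted p values of 0.0314 and 0.0409. Slbp itself had medians of 1.66 RPKM in sham and 1.19 in irradiated animals at 6 h, with overlap. Of 20 histone chaperones and deposition factors 12 were tested, with 2 higher and 1 lower at 2 h, 1 higher and 1 lower at 6 h, 1 lower at 1 day and none at 1 week, or 25%, 16.7%, 8.33% and 0%. In these 3 lists each share above 0 rests on 1 to 3 genes and shows nothing particular to the list. Hjurp, the chaperone of the centromeric H3 variant, was lower at both early times, with differences of -0.64 ± 0.15 at 2 h and -0.81 ± 0.15 at 6 h and adjusted p values of 0.0027 and 9.86e-05. Its 6 h groups did not overlap, at 9.86 to 13.3 against 4.45 to 6.71 RPKM, a separation in this direction found for 2.88% of all genes tested. Sham libraries 5 and 6 stood at 11.01 and 11.6. Tonsl, which binds newly deposited H4 at replication forks, was higher at 2 h by 0.88 ± 0.28 and at 6 h by 1.00 ± 0.28, with adjusted p values of 0.0406 and 0.00853.

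Genes of the cell cycle were in part higher at 1 week, the time at which Hist1h1b was higher. Of 38 S phase and replication genes 14 were tested: Mcm6, a subunit of the replicative helicase, was lower at 6 h with a difference of -0.44 ± 0.14 and higher at 1 week by 0.75 ± 0.14 with an adjusted limma p of 0.000912, and no other was called. Only 2 of 20 mitosis genes reached the level needed for the test, Ube2c and Cdk1, and neither was called. Among the 19900 genes with a read in at least 6 libraries, 7 of 20 mitosis genes were higher at 1 week, Kif11, Aurkb, Top2a, Cenpf, Mki67, Ccnb2 and Bub1b, and 5 of 38 S phase genes, Ccne1, Cdc6, Rrm2, Mcm6 and Clspn, where 1.74% of all genes were called and 1.08% were higher. In that fit 1 of 47 histone genes was higher at 1 week, Hist1h1b. Summed mitosis reads at 1 week were 46.7 to 77.4 RPM in sham and 135 to 212 RPM in irradiated animals, and S phase reads were 358 to 449 against 549 to 1474 RPM, both without overlap. At 1 day mitosis sums were 24.5 to 96.9 against 10.1 to 38.4 RPM, with overlap. Whether the Hist1h1b reads came from dividing cells was not tested, nor was the part of the mitochondrial share, which was also higher in each irradiated 1 week library. Of 11 p53 targets that halt the cell cycle, 7 were higher at 2 h, 8 at 6 h, 8 at 1 day and 6 at 1 week, and 1 was lower at each of 2 h, 6 h and 1 day. Cdkn1a, the p21 inhibitor of cyclin-dependent kinases, was higher by 5.58 ± 0.25, 5.55 ± 0.25, 5.11 ± 0.25 and 4.54 ± 0.25.

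A list of noncoding RNAs that lack a poly(A) tail, as most histone mRNAs do, was read as well. Of 11 tested, 1 was higher at 2 h and 3 at 6 h, Rn7sk, Rmrp and Scarna2, and none later, or 9.09% and 27.3% of the 11. Among all genes 8.62% and 20.9% were called at these times, 4.6% and 12.9% higher. At 6 h none of the 11 was separated between the groups. The 2 h count rests on 1 gene and the 6 h count on 3, so neither shows anything particular to the list. Their summed reads had medians of 227 RPM in sham and 461 in irradiated animals at 2 h, 333 and 989 at 6 h, 1769 and 1120 at 1 day and 1118 and 1164 at 1 week. Sham libraries at 6 h ran from 152 to 899 RPM and irradiated libraries from 850 to 1431 RPM, and among the sham libraries numbers 5 and 6 were highest, at 617 and 899 RPM. Neural progenitor markers gave 91.6 RPM or more in sham 6 h libraries 1, 3 and 4 and at most 38.1 RPM in libraries 2, 5 and 6, against 54.7 to 84.2 RPM in irradiated animals. Their part in the histone results was not tested.

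**Figure D5:**
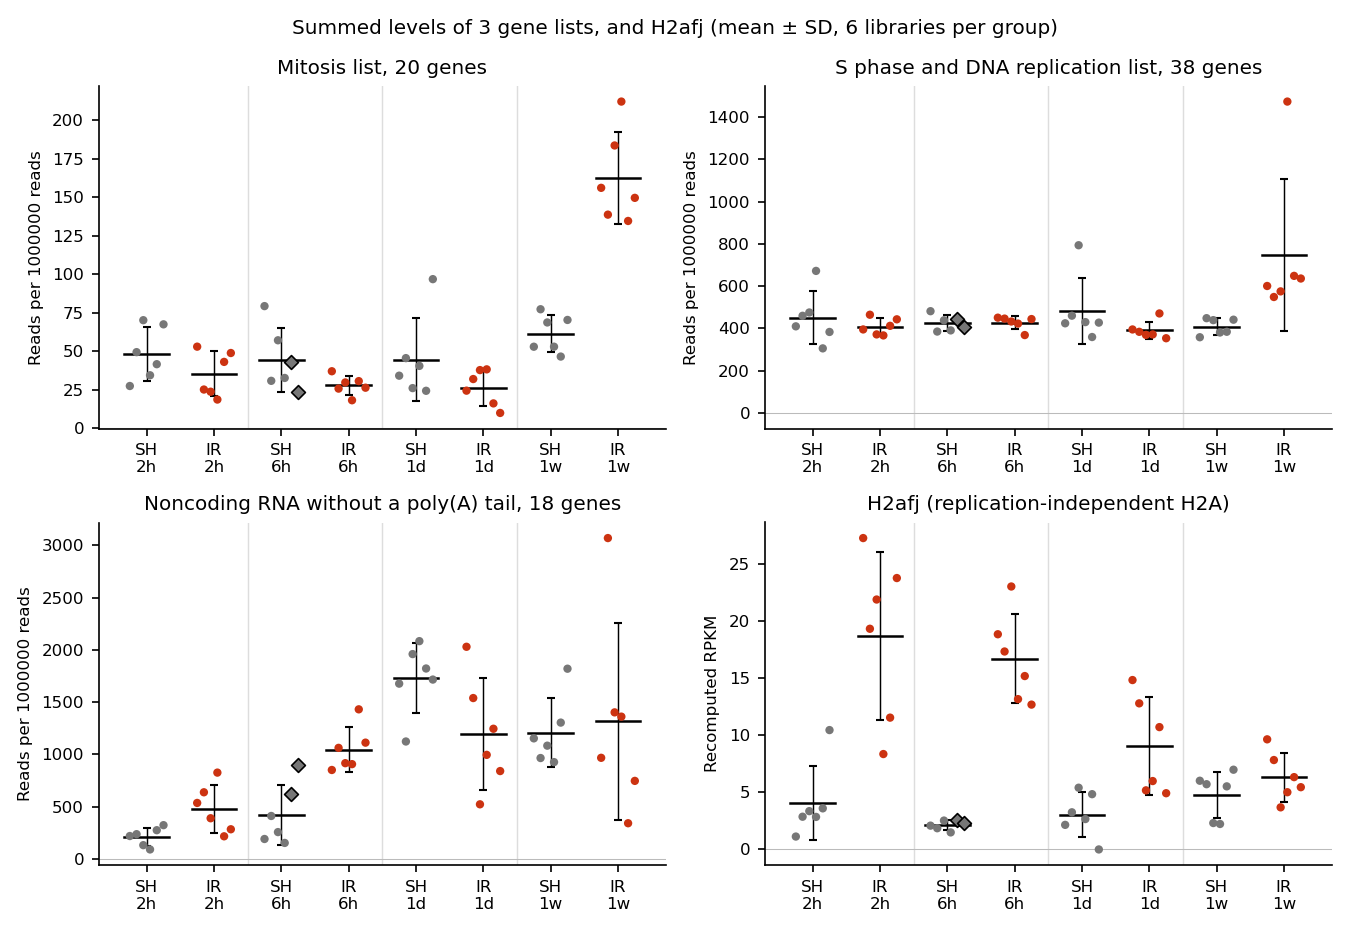
Summed reads per 1000000 reads of 3 gene lists, and RPKM of H2afj, by group and time: points are single libraries (grey sham, SH, and red irradiated, IR), lines the mean and bars the SD of 6 libraries, and diamonds mark sham 6 h libraries 5 and 6. Mitosis and S phase sums are separated at 1 week, the noncoding sums of the diamonds lie above most sham 6 h libraries, and H2afj is separated at 6 h.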

How the data were processed

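Total RNA of sorted hippocampal microglia was sequenced in 48 libraries, 6 sham and 6 irradiated animals at each of 4 times. The submitters' processing notes name the aligner STAR 2.6.1d and the counter featureCounts 1.5.1 (beside FastQC 0.11.8 and bcl2fastq 2.20.0), and as builds mm10 and GRCm38. The annotation, the strand setting and the handling of reads with several matches are not given in the sources used here, so genes that overlap or resemble each other are uncertain.

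The authors deposited 1 table of RPKM for 48526 genes, 27654 of them above 0 somewhere. Its values divide reads by the gene span from start to end, introns included, and by a library total that in most cases was that of another library; 2.05% were divided by their own. Multiplying back gave whole reads, within 0.001 reads, for 100% of the 719081 values above 0. More than 1 match was possible for 95 genes, none of them a histone gene described here. Dividing the reads by the own total of their library gave the RPKM used here, except where values are named as deposited.

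The test was limma 3.58.1 (R 4.3.3) with a mean for each of the 8 groups, eBayes with trend and robust settings, and log2(RPKM + 1) as the response. Tested were the 10132 genes that reached an RPKM of 1 in 6 or more libraries. Fold changes on this scale understate those of low genes. Tests are two-sided with Benjamini-Hochberg adjustment over all genes tested and a threshold of 0.05, and the steps were tested on simulated data. The 9 histone genes under the minimum were not tested. Class sums and list sums are described without a test. The animals behind the libraries are separate, and counting error alone is largest in the library of 175382 reads.

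Named are the histone genes called at any of the 4 times, the 3 with the highest mean RPKM of each class, and up to 4 genes of each other list with the smallest adjusted p; other names were chosen after their values were seen. The histone genes, the lists and the tests were chosen with earlier results of these data known. Alternatives were a pseudocount of 0.1, every gene with a read in at least 6 libraries, median-of-ratios size factors, limma voom on recovered reads, the libraries of 1 time alone, the deposited values, removal of a trend over GC content and gene length, leaving out libraries under 1000000 reads or 1 library in turn, the replicate number as a block, and part of the sham 6 h libraries. Stem-loops come from GENCODE M21 transcripts and promoters from RefSeq, GRCm38.p6.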

Additional observations from a re-analysis of the deposited data

Results flagged for a closer look

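Among 168 sets of 6 libraries (16 histone genes and 5 class sums, each in 8 groups) 21 had 1 library far from the other 5, its gap to the nearest of them taking more of the whole range than Dixon's 95% value for 6 values allows. Chance gives about 1 in 20 such sets for normally distributed values, and low read counts are skewed. Nearly all stood high. Hist1h4c did so in 4 groups, with 20.7 RPKM in sham 2 h library 3, 41.0 in irradiated 6 h library 6, 37.6 in irradiated 1 day library 6 and 36.8 in irradiated 1 week library 6. Hist1h2ad did so in 4 groups, with 2.95 RPKM in sham 2 h library 3, 12.3 in sham 1 day library 6 (the library of 175382 reads), 2.37 in irradiated 1 day library 4 and 2.46 in irradiated 1 week library 6. In that order, these values of Hist1h2ad rest on 2, 1, 2 and 4 reads. Hist1h2bb stood at 9.07 RPKM in sham 6 h library 4, 33.5 in irradiated 6 h library 6 and 25.8 in irradiated 1 day library 5.

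Sham 2 h library 2 held 12.01 RPKM of both Hist2h2be and Hist1h3a. Hist2h2be was also high in irradiated 1 week library 6 at 7.73 RPKM. In sham 6 h library 6 Hist1h3a was at 11.4 and Hist1h3d at 6.70 RPKM. Hist1h4i reached 17.8 RPKM in sham 1 day library 2. Hist1h1d, lower at 6 h after irradiation, was at 48.4 RPKM in irradiated 6 h library 3. Irradiated 1 day library 2 was high for Hist1h1c, at 307 RPKM, and for the linker sum, at 522 RPM. The H2B sum of irradiated 6 h library 2 was low, at 65.9 RPM.

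The response to irradiation differed between adjacent times for 2 genes by a test of that difference in limma. The log2 difference of Hist1h2bc was higher at 1 day than at 6 h by 1.25, and that of Hist1h1b was higher at 1 week than at 1 day by 2.24.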

How the results depend on the processing

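No called difference of a named gene changed direction under any alternative run. Of the 16 named genes' differences at 4 times, recomputed under all alternatives, 1336 values kept their side of the threshold, 34 lost it and 6 gained it. With a pseudocount of 0.1, the count lower was 0 at 2 h and 0 at 6 h, 1 gene was higher (Hist1h2bc) and 1 lower (Hist1h1a) at 1 day, and 3 differed between 1 week and 1 day. With the values as deposited, counts were 0 lower at 2 h, 0 lower at 6 h, 0 higher at 1 week, and 0 for both later changes between times; those values mix totals of other libraries. With every gene tested that had a read in at least 6 libraries, 1 was lower at 6 h (Hist3h2a), as more genes enter the adjustment. With the GC content and gene length trend removed, 2 were lower at 2 h (Hist3h2a and Hist1h3d), and Hist1h1d at 6 h was not called, with an adjusted limma p of 0.0521. Over all genes, that removal took the share of calls that were higher from 61.7% to 51.3% at 6 h and from 57.4% to 44.9% at 1 week. With median-of-ratios size factors that share was 49.2% at 1 week. With limma voom, 1 was lower at 1 day (Hist1h1a), 1 differed between 6 h and 2 h (Hist1h1d) and 5 between 1 week and 1 day. At 6 h limma voom called Hist1h2bc lower and did not call Hist1h2ad, which had an adjusted p of 0.0767. With the 12 libraries of the time alone, 1 was lower at 1 day (Hist1h1a). Without the libraries of under 1000000 reads, 1 was lower at 1 day (Hist3h2a), 2 differed between 6 h and 2 h (Hist1h1d and Hist1h2ad) and 4 between 1 week and 1 day. Against sham 6 h libraries 5 and 6 alone 0 were lower at 6 h, and against libraries 1 to 4 alone 1 was higher (Hist1h1c). Where no reason is given, the cause was not tested.

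The replicate numbers did not pair the animals: 2 of 24 same-numbered pairs correlated above 0.1, with a range of -0.11 to 0.14, and 5 of 24 correlated best with their own number. With the replicate block, 0 genes differed between 1 day and 6 h (Hist1h2bc had an adjusted limma p of 0.0553) and 3 between 1 week and 1 day, and Hist1h2ad at 6 h had an adjusted limma p of 0.0675.

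Leaving out 1 library of the times compared in turn gave 0 to 1 higher at 6 h (1 without irradiated library 6, Hist1h1b) and 1 to 3 lower at 6 h. It gave 0 to 1 higher at 1 day (1 without sham library 2 or irradiated library 6), 0 to 1 lower at 1 day (1 without sham library 6), 0 to 1 between 6 h and 2 h (1 without sham 2 h library 3 or sham 6 h library 6) and 1 to 3 between 1 week and 1 day. In that last change 2 or 3 genes were called without sham 1 day library 3 or 6, irradiated 1 day library 4 or 6, sham 1 week library 2, 5 or 6, or irradiated 1 week library 2 or 3. Libraries of the other times bear on these counts through the shared spread: 2 genes differed between 6 h and 2 h without sham 1 day library 6, and 2 between 1 week and 1 day without sham 2 h library 2 or 6, sham 6 h library 2 or irradiated 6 h library 3. The counts at 2 h and 1 week did not change. Depth limits the precision for the 23 genes of under 100 reads and for the H3 genes.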
